A study of Mus musculus with 4 samples.

Results

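The cells described here are 712 DNA-replicating cells among 22049 cells kept from 4 single-cell RNA-seq libraries of C3H10T1/2, a mouse mesenchymal progenitor cell (MPC) line. A kept cell was selected on its RNA: at least 6 molecules (UMIs, unique molecular identifiers) over 6 replication genes, Rrm2, Mcm5, Mcm6, Pcna, Tyms and Clspn, together with at most 2 UMIs over 5 mitosis genes, Ccnb2, Cdc20, Cenpf, Ube2c and Tpx2. All 4 libraries came from C3H10T1/2 cells carrying a stably integrated lentiviral histone H3.1 transgene, either wild type (H3WT) or with cysteine in place of arginine 26 (H3R26C), so that both genotypes also kept their own H3 genes. The cells had received DMSO, the vehicle, or 5-azacytidine (5-Aza), an inhibitor of DNA methyltransferases that is incorporated by cells copying their DNA. The exposure to 5-Aza lasted 24 h at 3 µM, with collection at day 28. The collection day of the DMSO cells is not given in the sources used here, so an effect of 5-Aza and one of time in culture cannot be told apart here. With 136 cells from H3WT DMSO, 111 from H3WT 5-Aza, 149 from H3R26C DMSO and 316 from H3R26C 5-Aza, each condition was 1 library, and no test between conditions could be made. Intervals below are 95% and cover counting error only.

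Before a cell copies its DNA, the origin recognition complex, Cdc6 and Cdt1 load the Mcm2-7 helicase onto origins. In S phase the helicase is activated by Cdc45 and the GINS proteins, DNA polymerases copy both strands around the sliding clamp Pcna, and ribonucleotide reductase (Rrm1 with Rrm2) and thymidylate synthase (Tyms) supply deoxynucleotides. Newly made DNA is packed with new histones by the chaperone CAF-1, and its methylation is copied by Dnmt1, which Uhrf1 recruits. Many of these genes are switched on by E2F transcription factors at the passage from G1 to S phase, and mitosis genes follow later, in G2.

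The promoters of several of these genes carry the E2F binding word, and 6 windows of 120 bases are shown to let it be read directly. Each window comes from the RefSeq promoter set of GRCm38.p6, which spans 250 bases before to 50 bases after each gene's start in that set. That start can differ from the gene positions printed further on, as for Cdc6 and Pclaf. Capitals mark the words TTTCCCGC, TTTGGCGC, TTTCGCGC and TTTGCCGC on either strand; where neighbouring words overlapped, the capitals run through both. Mcm5 (chr8:75109302-75109421 on the plus strand), Mcm6 (chr1:128359721-128359840 on the minus strand) and Clspn (chr4:126556910-126557029 on the plus strand) belong to the genes that selected the cells.

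Mcm5: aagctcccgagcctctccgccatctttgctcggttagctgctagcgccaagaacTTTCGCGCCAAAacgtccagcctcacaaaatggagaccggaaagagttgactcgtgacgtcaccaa

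Mcm6: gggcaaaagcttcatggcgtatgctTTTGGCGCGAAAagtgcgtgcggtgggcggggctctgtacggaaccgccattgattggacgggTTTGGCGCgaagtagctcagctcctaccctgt

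Clspn: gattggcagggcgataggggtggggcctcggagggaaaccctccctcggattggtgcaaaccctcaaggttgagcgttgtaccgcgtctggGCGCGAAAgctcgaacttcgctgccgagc

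Mcm3 (chr1:20820263-20820382 on the minus strand), a helicase subunit, Cdc6 (chr11:98907957-98908076 on the plus strand), the helicase loader, and Pclaf (chr9:65890253-65890372 on the plus strand), a partner of the clamp, were not used for selection.

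Mcm3: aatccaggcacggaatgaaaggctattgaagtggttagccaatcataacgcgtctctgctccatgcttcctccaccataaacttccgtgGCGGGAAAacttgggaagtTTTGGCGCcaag

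Cdc6: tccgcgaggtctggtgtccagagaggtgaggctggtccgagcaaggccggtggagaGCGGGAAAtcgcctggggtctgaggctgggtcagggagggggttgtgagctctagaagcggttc

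Pclaf: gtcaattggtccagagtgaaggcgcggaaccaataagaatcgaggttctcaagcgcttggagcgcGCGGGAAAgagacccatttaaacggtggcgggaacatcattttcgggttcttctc

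At least 1 of these words stood in the promoters of 3 of the 6 selecting replication genes and in 0 of the 4 matched mitosis genes. Across all promoters of the table, 744 of 32851 (2.26%) held one, and the share was 4.94% (350 of 7090) for the genes abundant enough to be compared below. Of the 100 genes higher in the replicating cells of every library, 80 had a promoter in the table and 25 of these (31.3%) held a word. The match was found in 9 of 18 origin licensing genes, 7 of 25 polymerase and clamp genes and 7 of 17 G1/S regulators, and in none of 16 nucleotide supply genes or 18 collagen and matrix genes. In the wider list of G2 and mitosis genes it was found in 3 of 37 (8.11%). A matched word is a description of the sequence and not a measured site.

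The depth of the libraries differed, which bears on any rule that counts molecules. Kept cells held a median of 22420 UMIs in H3WT DMSO, 13149 in H3WT 5-Aza, 16598 in H3R26C DMSO and 13123 in H3R26C 5-Aza. The replicating cells were deeper than their libraries, with medians of 30074.5, 17861, 23050 and 18154.5 UMIs in the same order, and the median cell held 5817.5, 4570, 5161 and 4522 genes. No cell barcode was shared by replicating cells of different libraries, while 24 to 58 kept barcodes were shared between pairs of libraries. Cells with over double the median UMIs of their library made up 6.62%, 6.31%, 9.40% and 8.54% of the replicating cells against 1.97%, 2.50%, 2.96% and 5.55% of kept cells, and no doublets were removed here.

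The markers Rrm2, Mcm5, Pcna, Tyms and Clspn of the label were used by the rule itself, so their levels cannot check the label. They are given to show how unevenly the libraries met the rule. Rrm2, the small subunit of ribonucleotide reductase, stood at 12.4 CPM (UMIs of the gene in each 1000000 UMIs summed over the cells) in the replicating cells of H3WT DMSO, 63.0 in H3WT 5-Aza, 41.6 in H3R26C DMSO and 73.2 in H3R26C 5-Aza. Clspn, the adaptor of the replication checkpoint, was at 8.56, 33.3, 35.3 and 37.6 CPM. Both were lowest in H3WT DMSO, whereas Pcna was near level across libraries at 166, 193, 203 and 188 CPM. In cells with at most 1 UMI over both gene lists (quiet cells, 11765 in all), Rrm2 was at 0.642, 1.39, 0.760 and 2.22 CPM, but Pcna was at 14.3 to 18.2 CPM. Pcna supplied 46.3% of the selecting UMIs in the replicating cells of H3WT DMSO and 27.1%, 30.1% and 26.6% in the other libraries.

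In H3WT DMSO most of the replicating cells sat at the edge of the rule. Exactly 6 replication UMIs were found in 72 of its 136 cells (52.9%), against 10.8%, 16.8% and 13.9% of the replicating cells in H3WT 5-Aza, H3R26C DMSO and H3R26C 5-Aza. The number of cells fell from 126 at 5 UMIs to 72 at 6 and 18 at 7 in H3WT DMSO. In the other libraries it fell from 47, 58 and 94 at 5 UMIs to 12, 25 and 44 at 6, in the order above. The median replicating cell held 6 selecting UMIs in H3WT DMSO against 10, 11 and 11, and the highest cell held 58, 51, 73 and 56. In H3R26C DMSO 64 of 149 cells held 6 to 9 UMIs. As described further on, the cells with 6 to 9 UMIs of H3WT DMSO lay near the quiet cells in replication genes that the rule did not use. Those of H3R26C DMSO lay further above, at a median of 871 CPM against 612, but by less than those of the 5-Aza libraries. By these replication genes the label holds only in part, least in H3WT DMSO. Results are therefore given also for cells with at least 10 replication UMIs, 32, 58, 85 and 180 cells. The median histone RNA of the replicating cells was below that of quiet cells in all 4 libraries. Single histone genes went both ways, as given further on, so this median is not used to judge the label.

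**Figure D1:**
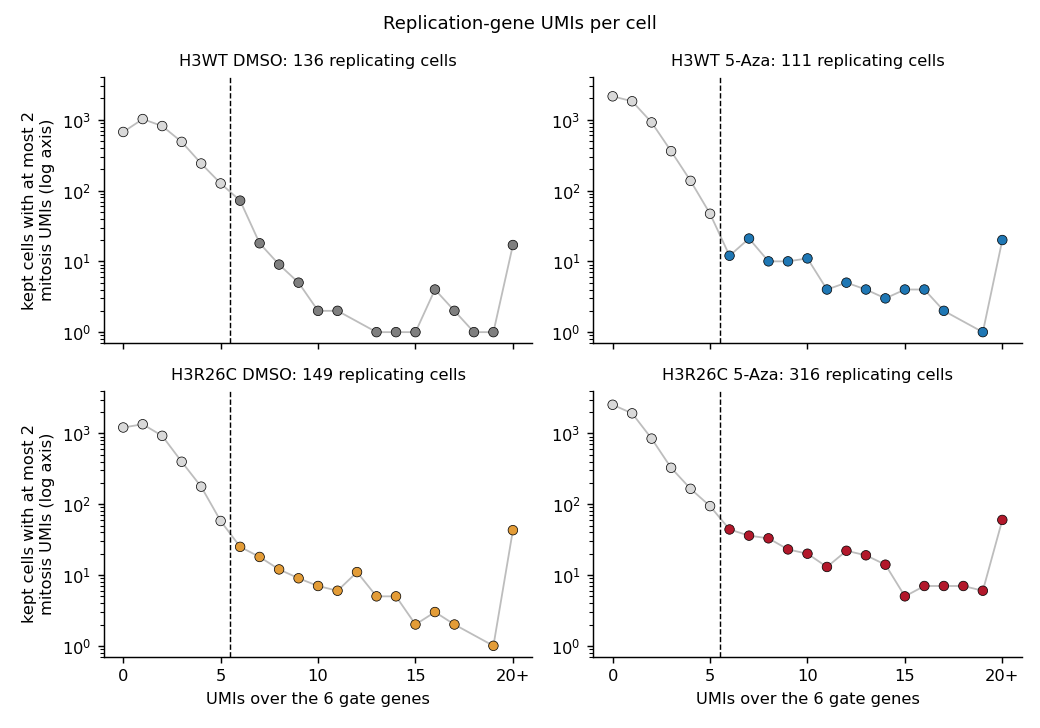
Number of kept cells (y, log scale) against their UMIs over the 6 replication genes (x), for cells with at most 2 mitosis UMIs, 1 panel per library. H3WT DMSO falls steeply through the threshold of 6, from 126 cells at 5 UMIs to 72 at 6 and 18 at 7, so that 52.9% of its replicating cells lie at 6, against 10.8% to 16.8% in the other libraries.

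Values just outside and just inside the threshold are given for a gene the rule did not use. Mcm3 was at 11.7 CPM in cells of H3WT DMSO with 5 replication UMIs and at 18.3 CPM in cells with 6. In H3WT 5-Aza it was at 35.0 and 56.6, in H3R26C DMSO at 19.6 and 15.9, and in H3R26C 5-Aza at 69.5 and 71.9 CPM. The cells with 6 UMIs were above those with 5 in 3 of 4 libraries, and in both DMSO libraries they were near the quiet level of Mcm3, 12.9 and 11.7 CPM.

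The replicating cells made up 3.67% (3.08 to 4.32) of the kept cells in H3WT DMSO, 1.85% (1.53 to 2.23) in H3WT 5-Aza, 3.15% (2.67 to 3.69) in H3R26C DMSO and 4.15% (3.71 to 4.62) in H3R26C 5-Aza. The place of H3WT DMSO in this order moved when the rule or the range of depth was changed. Under the same rule among cells of 10000 to 25000 UMIs, the shares were 1.62%, 2.05%, 2.34% and 5.02%. When each cell was thinned to 5000 UMIs and the rule lowered to at least 3 replication UMIs and at most 1 mitosis UMI, the shares were 2.51% (2.03 to 3.06), 2.35% (1.98 to 2.77), 3.93% (3.40 to 4.53) and 5.24% (4.75 to 5.76). The thinned rule took in many other cells. Only 33 of its 93, 65 of 141, 77 of 186 and 200 of 399 cells also passed the rule as stated. In H3WT DMSO its cells held up to 103 replication UMIs before thinning, against 58 by the rule as stated. The thinned shares are thus not a depth correction of the same cells. With at least 10 replication UMIs they were 0.863% (0.591 to 1.22), 0.968% (0.736 to 1.25), 1.80% (1.44 to 2.22) and 2.36% (2.03 to 2.73). By the thinned and the stricter rule the intervals of the H3WT libraries overlapped each other and lay below both H3R26C libraries. The 6 replication genes over all kept cells gave 148, 148, 197 and 209 CPM, the same order without any threshold on cells.

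Barcodes rich in skeletal muscle RNA give a comparison for the rule, since differentiated muscle cells have left the cell cycle. Barcodes with a UMI of at least 8 of 13 muscle markers numbered 289 in H3WT 5-Aza and 431 in H3R26C 5-Aza, and none were found with DMSO. Of these, 6 (2.08%, 0.766 to 4.46) and 22 (5.10%, 3.23 to 7.63) passed the rule, at median depths of 15348 and 16906 UMIs. The intervals of these shares overlap those of the whole 5-Aza libraries. By the thinned rule 3 (1.04%) and 12 (2.78%) passed, below the 2.35% and 5.24% of the libraries. Doublets of a muscle and a replicating cell were not told apart from muscle cells, and with no such barcodes the DMSO libraries have no value of this kind. At 10 or more UMIs, 0 of 289 and 14 of 431 of these barcodes passed. The interval of the latter, 1.79% to 5.39%, holds the 2.36% of all kept cells of H3R26C 5-Aza, so its share was not below the library. The 0 of 289 allows a share of up to 1.04% by a floor of 3 counts and up to 1.27% by the Clopper-Pearson interval.

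**Figure D2:**
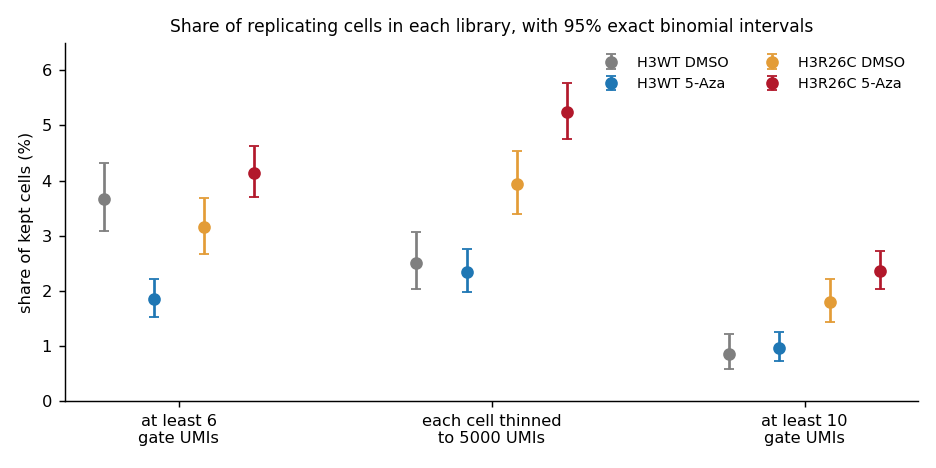
Share of kept cells (y, percent) that were replicating in each library, by the rule as stated, after thinning to 5000 UMIs and with at least 10 replication UMIs, with 95% Clopper-Pearson intervals that cover counting error only. H3WT DMSO is at 3.67% by the rule, 2.51% after thinning and 0.863% at 10 UMIs, while H3R26C 5-Aza is the highest by each measure. The cells chosen after thinning are only in part those of the rule as stated.

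The RNA of the replicating cells was next set against that of the quiet cells of the same library. Because the cells were selected on this same contrast, the values are a description, and genes that travel with the selecting genes had to differ. Of 8870 genes whose mean over the libraries reached 10 CPM in either class, 100 (1.13%) were at least 2-fold higher in the replicating cells of all 4 libraries and 5 (0.0564%) at least 2-fold lower, as log2 of CPM with 1 CPM added. By library, H3WT DMSO had the fewest, 1.63% higher and 0.18% lower, against 3.19% and 1.2% in H3WT 5-Aza, 4.18% and 1.57% in H3R26C DMSO and 3.82% and 3.89% in H3R26C 5-Aza. H3WT DMSO set the joint count: without it 211 genes were higher and 30 lower, and without H3WT 5-Aza 9 were lower. With at least 10 replication UMIs, 217 of the same genes were higher and 40 lower in all 4.

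Origin licensing genes stood out among the lists. Of 23 genes 16 could be compared, and 11 of these were at least 2-fold higher in every library, with none lower. Their median log2 ratio was 1.62 in H3WT DMSO, 3.19 in H3WT 5-Aza, 3.08 in H3R26C DMSO and 3.41 in H3R26C 5-Aza, beside 0.05, -0.02, -0.02 and -0.09 for all genes. At 10 or more replication UMIs the medians drew together at 3.09, 3.55, 3.56 and 3.74. The gap of H3WT DMSO thus lay mostly in its cells near the threshold.

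The helicase and its loaders carried this list. Mcm3 (chr1:20802968-20820312, minus strand, GRCm38) was at 78.5 CPM (70.3 to 87.4) in the replicating cells of H3WT DMSO, 177 (159 to 196) in H3WT 5-Aza, 167 (154 to 181) in H3R26C DMSO and 182 (172 to 194) in H3R26C 5-Aza. In quiet cells it was at 12.9, 11.8, 11.7 and 6.58 CPM, so every replicating value lay above every quiet value. Cdc6 (chr11:98907801-98923940, plus strand) was at 9.99 CPM (7.2 to 13.5), 32.7 (25.3 to 41.7), 36.4 (30.4 to 43.4) and 49.9 (44.3 to 55.9) against 0.275, 1.26, 0.629 and 3.37 in quiet cells. Its log2 ratios were 3.11, 3.9, 4.52 and 3.54. Cdt1, the partner of Cdc6 in loading, had log2 ratios of 2.33, 3.62, 3.54 and 3.34, and the helicase subunit Mcm2 had 2.41, 3.99, 3.93 and 3.97. Gmnn (geminin), which binds Cdt1 and blocks reloading, was also among the 11, with 15.2, 49.4, 52.5 and 82.8 CPM in replicating cells and 2.02 to 5.33 CPM in quiet cells. Some members of the origin recognition complex behaved otherwise: Orc3 had log2 ratios of -0.17, -0.07, -0.10 and 0.32, and Orc4 had 0.16, -0.08, -0.06 and -0.06.

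Among genes of the polymerases, the clamp and the lagging strand, 14 of 29 compared genes (30 in the list) were higher in all 4 libraries and none lower. The median log2 ratios were 0.91, 2.11, 1.88 and 2.21. Dscc1 (chr15:55076099-55090491, minus strand), a subunit of the alternative clamp loader that serves sister chromatid cohesion, was at 12.8, 39.8, 39.6 and 35.3 CPM against 1.28, 1.58, 1.55 and 1.11 in quiet cells. Fen1, the flap endonuclease, had log2 ratios of 1.63, 2.98, 3.09 and 3.40, and Lig1, the ligase that joins Okazaki fragments, had 1.84, 3.35, 2.89 and 3.69. Pold4, the small subunit of polymerase delta, was level between the classes, with log2 ratios of -0.04, 0.08, -0.03 and 0.07. Top2b, the topoisomerase II of resting cells, was likewise under the fold in all libraries, at 0.07, -0.01, -0.32 and -0.39, while Top2a, that of dividing cells, passed it in each.

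The list of chromatin assembly and histone supply held several of the genes that rose most. By the rule for named genes, the 10 genes with the largest smallest-of-4 ratio, outside the selecting genes, were Pclaf, Uhrf1, Tk1, Cdc6, Hells, Chaf1b, Dscc1, Tcf19, Mcm3 and Fignl1. Pclaf (chr9:65890237-65903266, plus strand), which binds Pcna, led them at 31.9 CPM (26.7 to 37.7), 112 (97.6 to 128), 121 (109 to 133) and 107 (98.3 to 115). Quiet cells held 0.734, 1.28, 1.47 and 2.41 CPM of Pclaf, and the log2 ratios were 4.24, 5.63, 5.62 and 4.98. Set against all other kept cells of a library, which include those with mitosis RNA, the lowest of the 4 log2 ratios of Pclaf was -0.02, and 19 genes in all were higher in every library. Uhrf1 (chr17:56303321-56323486, plus strand), which reads hemimethylated DNA and brings in Dnmt1, was at 25.5, 93.2, 117 and 92.7 CPM against 0.856, 1.33, 1.44 and 2.80. Hells (chr19:38930915-38971051, plus strand), a chromatin remodeller needed for DNA methylation, was at 39.2, 127, 121 and 160 CPM against 4.04, 5.48, 5.40 and 6.09. Chaf1b (chr16:93883901-93906115, plus strand), a subunit of CAF-1, was at 21.4, 72.0, 73.2 and 67.6 CPM against 2.07 to 2.49. In all, 9 of 22 compared genes of this list (24 in the list) were higher in all 4, with medians of 0.78, 1.72, 1.67 and 1.86.

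Since 5-Aza acts on DNA methyltransferases in cells that copy DNA, the methylation genes are given on their own. The 24 h exposure had ended well before collection at day 28, so the levels do not show its direct action. Dnmt1, the maintenance enzyme, was at 58.8 CPM in the replicating cells of H3WT DMSO, 135 in H3WT 5-Aza, 133 in H3R26C DMSO and 98.2 in H3R26C 5-Aza, and at 25.7 to 30.1 CPM in quiet cells. Dnmt1 and Uhrf1 were the only members at or over the fold in all 4 libraries among 8 compared of 10. Of PRC2, the complex that methylates H3 at lysine 27 close to arginine 26, none of 8 compared genes (10 in the list) passed the fold in every library, whereas with at least 10 selecting UMIs Ezh2 was higher and Jarid2 lower in all 4. Ezh2, its main catalytic subunit, had log2 ratios of 0.57, 1.83, 1.85 and 1.86. Ezh1, the alternative catalytic subunit, had 0.14, -0.92, -0.63 and -1.09, and Jarid2, an accessory subunit, had -0.35, -1.28, -0.97 and -1.10. Ezh2 and Ezh1 thus had opposite signs in 3 libraries, and the same sign in H3WT DMSO.

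Nucleotide supply was less uniform. Of 18 compared genes, 3 were at least 2-fold higher in all 4, Rrm1 and Tk1 among them, and the medians were 0.43, 0.92, 1.09 and 1.25. Tk1 (chr11:117815526-117826092, minus strand), thymidine kinase of the S phase salvage route, was at 17.6 CPM (13.8 to 22.1), 95.2 (82.1 to 110), 112 (102 to 124) and 137 (127 to 146) against 0.306, 0.969, 0.760 and 2.22 in quiet cells. Against all other kept cells the lowest of its 4 log2 ratios was -0.48. Rrm2b, the reductase subunit that serves cells outside S phase, stayed under the fold at -0.11, -0.33, -0.08 and -0.28, and so did Samhd1, which breaks down deoxynucleotides, at -0.03, -0.15, 0.04 and -0.32. Of 22 compared G1/S regulators (25 in the list), Ccne1, Ccne2 and E2f1 passed in every library. Ccne2, a cyclin of the G1/S passage, was at 6.18, 32.2, 29.6 and 23.6 CPM against 0.367, 0.779, 0.656 and 1.15, and Ccnd1, the cyclin of mitogen signals in G1, had log2 ratios of 0.93, 1.27, 1.41 and 1.52.

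Checkpoint and repair genes gave 10 of 21 compared genes (32 in the list) higher in all 4, with medians of 0.74, 1.87, 1.85 and 2.06. Fignl1 (chr11:11787431-11808962, minus strand), which acts in homologous recombination, was at 8.33, 21.7, 25.8 and 34.1 CPM against 0.682 to 1.19. Genes of ribosome biogenesis and growth, 22 compared of 23, leaned upward without passing the fold together: none was 2-fold higher in all 4, and the medians were 0.25, 0.58, 0.71 and 0.98. Among G2 and mitosis genes, 14 of 40 were abundant enough and 6 of these (Cdk1, Mki67, Top2a, Birc5, Smc2 and Cks2) were higher in every library, although the rule capped other mitosis genes. The medians of the 14 were 0.82, 2.28, 2.39 and 2.12.

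**Figure D3:**
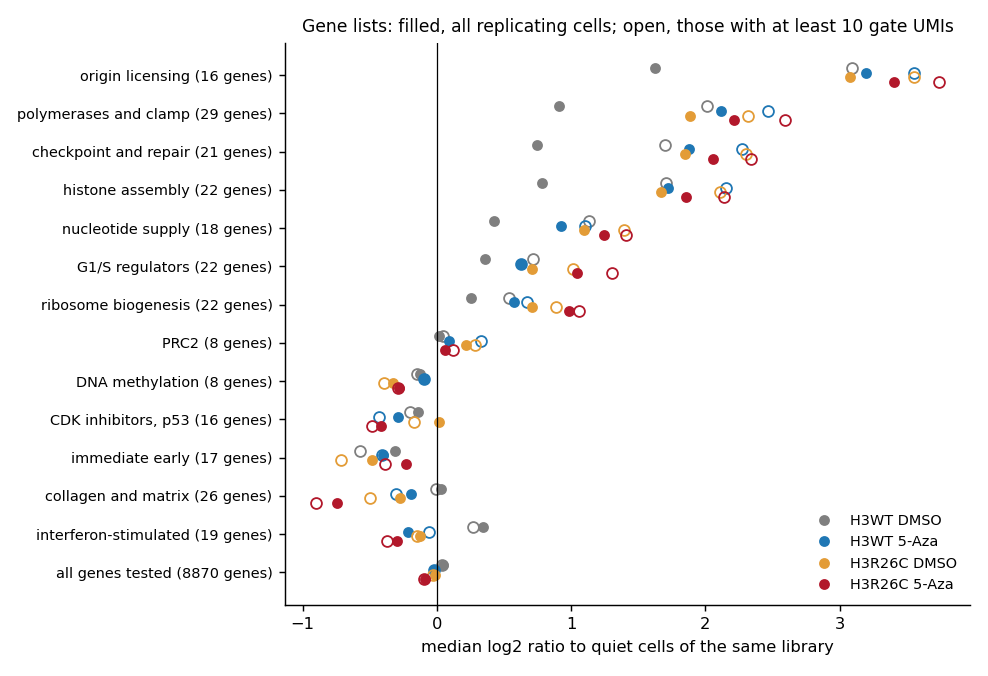
Median log2 ratio of replicating to quiet cells (x) for each gene list (y) in the 4 libraries, filled for all replicating cells and open for those with at least 10 replication UMIs. Origin licensing is furthest to the right, from 1.62 in H3WT DMSO to 3.41 in H3R26C 5-Aza, and the H3WT DMSO point moves to 3.09 at 10 UMIs, beside the other libraries.

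Genes that were lower in the replicating cells were few. The 5 genes past the fold in all 4 libraries were Cfd, Adipoq, Mgst1, Inmt and Gfra1. Cfd (chr10:79890853-79892655, plus strand), the complement factor adipsin secreted by fat cells, was at 0.951 CPM (0.259 to 2.44), 1.01 (0.122 to 3.64), 0.287 (0.00726 to 1.60) and 0.341 (0.0414 to 1.23) in replicating cells, from 1 to 4 UMIs a library. Quiet cells held 14.2, 31.8, 52.4 and 3.68 CPM of Cfd, but a lone cell supplied 32.8%, 16.3%, 27.4% and 72.6% of these UMIs. Adipoq, adiponectin, was at 0.476, 1.01, 0 and 0 CPM against 10.6 to 23.5 CPM. Gfra1, a receptor for GDNF, rested on more molecules, at 11.7 CPM (8.62 to 15.4), 15.1 (10.2 to 21.6), 6.89 (4.41 to 10.2) and 7.34 (5.31 to 9.89) against 27.2, 34.7, 21.9 and 23.1. The apolipoproteins Apod and Apoe were the most abundant of the 10 lowest genes: Apod had log2 ratios of -0.90, -1.34, -1.45 and -1.80, and Apoe -1.05, -0.90, -1.65 and -2.45.

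Withdrawal and stress genes moved less. None of 16 compared genes of the cyclin-dependent kinase inhibitor and p53 list (20 in the list) was past the fold in every library, and with at least 10 selecting UMIs Ccng2 and Trp53inp1 were lower in all 4. Ccng2, a cyclin of cells leaving the cycle, had log2 ratios of -0.60, -1.07, -1.21 and -1.31, and Cdkn1b, the p27 inhibitor, had -0.23, -0.64, -0.69 and -1.04. Cdkn1a, the p21 inhibitor, was at 222, 276, 162 and 340 CPM in replicating cells and 205, 311, 144 and 265 in quiet cells, with no common direction. Collagen and matrix genes had medians of 0.03, -0.19, -0.27 and -0.74 over 26 genes, furthest down in H3R26C 5-Aza, where 7 were at least 2-fold lower, beside 3.89% of all genes, the highest such share of the 4 libraries. Col1a1, the main collagen of fibroblasts, stayed at 3372, 2753, 3153 and 2995 CPM against 3123, 2837, 3405 and 3513 in quiet cells. The exception upward was Timp1, an inhibitor of matrix proteases, at 156, 261, 238 and 538 CPM against 68.1, 123, 80.4 and 255. Contractile genes (13 of 15 compared) had medians of 0.24, 0.04, 0.10 and 0.02 and mesenchymal surface genes (10 of 13) had 0.25, 0.16, 0.38 and -0.25. Interferon-stimulated genes (19 of 24) had 0.34, -0.21, -0.13 and -0.30, and immediate early genes (17 of 17) -0.32, -0.40, -0.48 and -0.23. The 5 nuclear-retained RNAs, such as Malat1, had -0.35, -0.53, -0.59 and -0.63. Of these 5 lists, only Fosl1, an immediate early gene, was past the fold in every library.

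**Figure D4:**
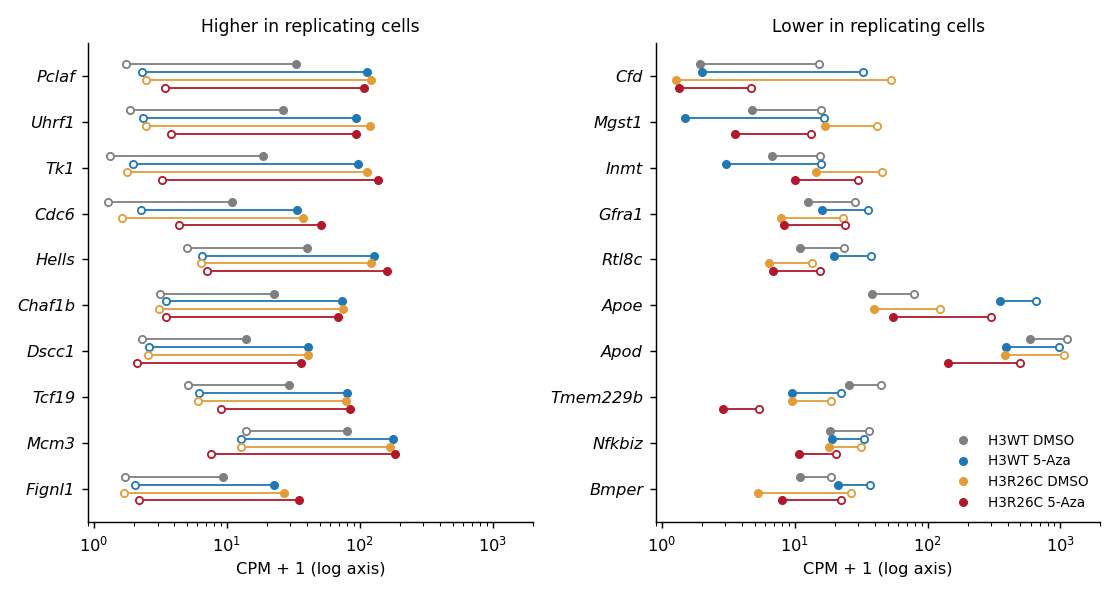
Level (x, CPM plus 1, log scale) of each named gene (y) in the replicating cells (filled) and quiet cells (open) of the 4 libraries. For Pclaf the filled points run from 31.9 to 121 CPM and the open points from 0.734 to 2.41 CPM; for Apod the order is turned around.

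Within the replicating cells the level of the unselected replication genes rose with the selecting UMIs. The sum of 50 replication genes that the rule did not use had a median per cell of 649 CPM in H3WT DMSO, 1731 in H3WT 5-Aza, 871 in H3R26C DMSO and 1975 in H3R26C 5-Aza among cells with 6 to 9 selecting UMIs. The quiet cells lay at 586, 626, 612 and 656 CPM, so that the gap to quiet cells was smallest in the DMSO libraries. At 10 to 19 UMIs the medians were 1728, 2398, 2100 and 3307, and at 20 or more 3735, 4581, 4173 and 4098. At this top range, reached by 17, 20, 43 and 60 cells, the libraries differed by less than they did near the threshold.

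Single genes gave the same picture. Cdc6 in H3WT DMSO was at 0.958 CPM in cells with 6 to 9 selecting UMIs and at 57.4 CPM with 20 or more. In H3R26C 5-Aza it was at 25.8 and 86.3 CPM. Ung, the uracil glycosylase that removes uracil from new DNA, went from 6.39 to 75.9 CPM in H3WT DMSO and from 25 to 76.5 CPM in H3R26C 5-Aza. Depth moved with the bins: from 6 to 9 to 20 or more selecting UMIs, the median went from 28782.5 to 30704 UMIs in H3WT DMSO, from 17910 to 19038 in H3WT 5-Aza, from 20777 to 26806 in H3R26C DMSO and from 17890 to 19767.5 in H3R26C 5-Aza. Its part in the result was not tested.

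The mitosis UMIs allowed by the rule marked a second direction within the cells. Among cells with at least 10 selecting UMIs, Ccna2, the cyclin of S phase and G2, was at 0, 1.91, 18.2 and 18.5 CPM where no mitosis UMI was seen. It was at 14.6, 35.9, 52.2 and 28.5 CPM where 2 were seen. Pclaf went from 19, 103, 141 and 120 to 313, 296, 370 and 216 CPM, and Top2a from 45.6, 76.4, 99.8 and 140 to 98.2, 303, 234 and 210 CPM. These cells were few, 8 to 54 with 2 mitosis UMIs in each library, and the values have no replicate.

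Cells with at least 6 replication UMIs and at least 3 mitosis UMIs, which the rule leaves out, are the nearest class and outnumbered the replicating cells in each library, at 138, 242, 343 and 699. Their median depth was also higher in H3WT DMSO, 39032 UMIs, and 21665.5 in H3WT 5-Aza. Per cell, the 50 unselected replication genes had medians of 3057, 2806, 2752 and 2608 CPM there, and of 938, 1244, 1226 and 1147 in mitotic cells, which held at least 6 mitosis UMIs and at most 5 replication UMIs. The class with both signals was therefore above the replicating cells near the threshold and below those with 20 or more UMIs.

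Replication-dependent histone genes, as a sum, differed between these classes. Their messages mostly end in a stem-loop and carry no poly(A) tail, so a poly(A) capture reads only part of them. The 67 histone genes summed to 947, 706, 622 and 346 CPM in replicating cells, to 1048, 831, 756 and 439 in quiet cells, and to 2029 in H3WT DMSO, 2795 in H3WT 5-Aza, 2714 in H3R26C DMSO and 1838 in H3R26C 5-Aza in replicating cells with mitosis RNA. Of 21 histone genes with at least 10 CPM in some class, 13 were at least 2-fold higher with mitosis RNA than in replicating cells in all 4 libraries. The share of all genes past this fold between these classes is not given here, so the count is a description only. None of the 21 differed 2-fold between replicating and quiet cells in all 4. Per cell, the median histone RNA of replicating cells was 884, 601, 530 and 237 CPM, below the 981, 764, 691 and 379 CPM of quiet cells. Hist1h1c and Hist1h4i were the most abundant of the 21 in the quiet cells of each library, and both were lower in replicating cells. Hist1h1b, Hist1h2ae and Hist1h1a were instead higher in replicating than in quiet cells in all 4, with lowest log2 ratios of 0.24, 0.53 and 0.70. Hist1h1b, a linker histone, was at 20.7, 63.0, 53.9 and 38.8 CPM in replicating cells, 17.3, 14.3, 16.4 and 8.16 in quiet cells and 498, 615, 672 and 374 in replicating cells with mitosis RNA. Hist1h2ae, a core histone, was at 20.5, 51.4, 37 and 43.0 CPM in replicating cells and at 316, 718, 587 and 536 with mitosis RNA. Other histone genes went the other way. Hist1h4i, a core histone, was lower with mitosis RNA than in replicating cells in all libraries but H3R26C 5-Aza. It was at 253, 114, 76.3 and 25.1 CPM in replicating cells, 275, 207, 144 and 66.3 in quiet cells and 80.5, 72.1, 37.7 and 25.7 with mitosis RNA. Hist1h4h and Hist1h2bc were lower with mitosis RNA in the same libraries, and Hist1h1c in the H3WT libraries. Hist2h3c1 was lower in all 4, at 10.2, 7.05, 2.87 and 1.71 CPM in replicating cells against 1.80, 2.23, 0.593 and 0.675.

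**Figure D5:**
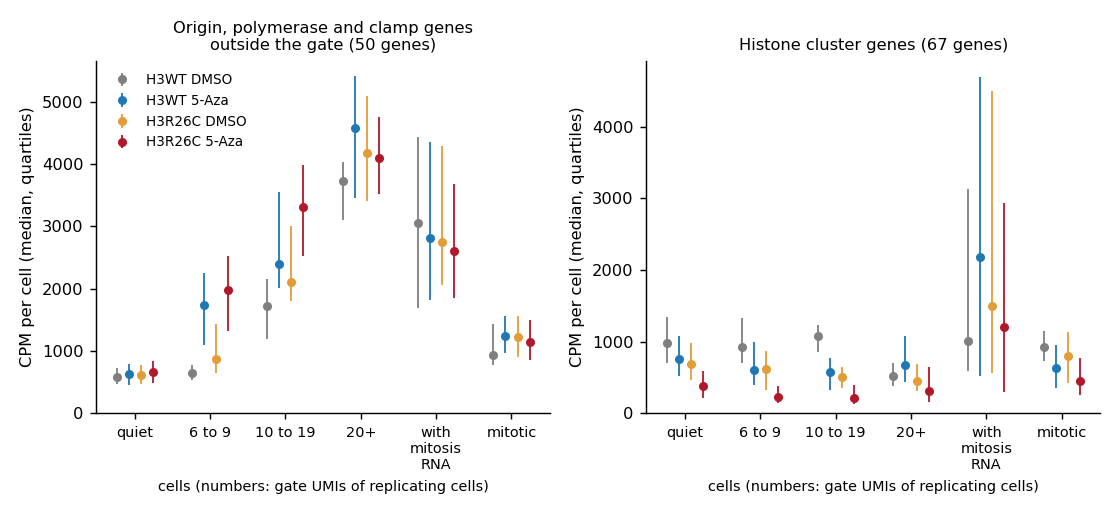
Median per cell and quartiles (CPM, y) of 50 replication genes not used for selection and of 67 histone genes, by class of cell (x) and library. The replication genes climb from the quiet cells to 3735 to 4581 CPM in cells with 20 or more selecting UMIs, whereas the histone genes are highest in replicating cells with mitosis RNA in 3 libraries; in H3WT DMSO that class, at 1013 CPM, is below the 15 replicating cells with 10 to 19 UMIs, at 1075 CPM.

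Replicating cells were then compared between conditions. The 4 comparisons share libraries and are not independent, each rests on 1 library a side, and a gene is counted where the log2 ratio of CPM reached 1 in size among genes with at least 10 CPM in either library. In H3WT, 428 of 8915 genes (4.8%) were higher with 5-Aza and 155 (1.74%) lower. In H3R26C, 441 of 8980 (4.91%) were higher with 5-Aza and 462 (5.14%) lower. With DMSO, 350 of 8853 (3.95%) were higher in H3R26C than in H3WT and 169 (1.91%) lower, and with 5-Aza 347 of 8993 (3.86%) were higher and 481 (5.35%) lower. In quiet cells fewer genes in all passed the same fold in each of the 4 comparisons, of 8688, 8947, 8598 and 8883 genes in the same order. The counting error was also smaller there: the quiet cells summed to 32704133, 47481572, 38137094 and 48625819 UMIs in H3WT DMSO, H3WT 5-Aza, H3R26C DMSO and H3R26C 5-Aza, against 4204153, 1984745, 3485128 and 5857223 in replicating cells, so that more genes near the minimum level can pass a fixed fold in replicating cells by counting error. Its part in the difference in counts was not tested. Quiet cells had 230 higher and 27 lower genes with 5-Aza in H3WT, and 499 and 244 with 5-Aza in H3R26C. For H3R26C against H3WT they had 95 and 26 with DMSO, and 308 and 169 with 5-Aza. Genes called in replicating cells were also checked for the fold in quiet cells, with no minimum level required there. With 5-Aza in H3WT, 189 of the 428 higher and 19 of the 155 lower genes passed it. With 5-Aza in H3R26C, 355 of 441 and 159 of 462 did. For H3R26C against H3WT with DMSO, 66 of 350 and 19 of 169 did. With 5-Aza the same contrast had 224 of 347 and 127 of 481.

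The replication lists differed between conditions where H3WT DMSO was a side of the comparison. Origin licensing genes had a median log2 ratio of 1.17 for 5-Aza against DMSO in H3WT and of 1.15 for H3R26C against H3WT with DMSO. With at least 10 selecting UMIs these were 0.34 and 0.32, and in the comparisons without H3WT DMSO they were 0.26 and 0.09 over all replicating cells. The replicating cells of H3WT DMSO also differed in composition, as described above, and its part in this difference was not tested. G2 and mitosis genes had medians of 1.98 and 1.77 in the 2 comparisons with H3WT DMSO, and of 1.21 and 1.05 with at least 10 selecting UMIs.

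With DMSO, the genes that rose most in H3R26C over H3WT were Mmp9, Ccl7, Ccl5, Ccl2 and Bace2, and since they were selected on the replicating cells, a smaller ratio in quiet cells follows in part from that choice. Mmp9, a matrix metalloprotease, was at 62.8 CPM (54.8 to 71.7) in the replicating cells of H3R26C DMSO and at 0.476 CPM in those of H3WT DMSO, from 2 UMIs. In quiet cells it was at 3.12 and 0.703 CPM. Ccl7, a chemokine that draws monocytes, was at 339 CPM (320 to 359) against 11.4 in replicating cells and at 14.0 against 9.75 in quiet cells. Ccl2, another monocyte chemokine, was at 556 CPM (531 to 581) against 39.7 in replicating cells and at 33.5 against 16.8 in quiet cells. Ccl5 was at 58.2 against 2.62 CPM in replicating cells and at 3.54 against 0.398 in quiet cells. Bace2 was at 76.0 against 4.76 CPM in replicating cells and at 53.4 against 6.05 in quiet cells. Mmp9 was seen in 57 of 149 replicating cells of H3R26C DMSO and Ccl2 in 72, with 43 holding both, and no cell supplied more than 11% of the Mmp9, Ccl7 or Ccl2 UMIs. Ccl5 was seen in 31 cells, and 1 cell supplied 21.2% of its UMIs.

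Other classes and libraries set these values in context. In replicating cells with mitosis RNA, Mmp9 was at 91.4 CPM in H3R26C DMSO but also at 44.3 CPM in H3WT DMSO, and Ccl2 was at 967 and 623 CPM. In mitotic cells Mmp9 was at 57.9 CPM in H3R26C DMSO and 5.6 in H3WT DMSO, and Ccl2 at 91.4 and 7.46 CPM. The gap between genotypes was thus wide in the replicating and in the mitotic cells and narrower in the class with mitosis RNA. Among replicating cells with at least 10 selecting UMIs the values still differed, with Mmp9 at 82.1 against 0.932 CPM and Ccl2 at 807 against 70.8 CPM. With 5-Aza, Mmp9 was lower in the replicating cells of H3R26C, at 4.10 CPM (2.63 to 6.1), and was at 2.63 CPM in quiet cells. The replicating cells of H3WT 5-Aza held Mmp9 at 4.53 CPM (2.07 to 8.61), so its gap between genotypes was not seen with 5-Aza. Ccl2 was at 185 CPM in H3R26C 5-Aza and 101 in H3WT 5-Aza, and Ccl7 at 75.1 and 46.9, narrower than with DMSO. The 5 blood markers summed to 4.30 CPM in the replicating cells of H3R26C DMSO and 10.2 in those of H3WT DMSO, against 4.80 and 7.19 in quiet cells. Ptprc, the pan-leukocyte marker, and the globins Hba-a1 and Hbb-bs were at 0 in both, and the most abundant was Lyz2 at 3.73 CPM in H3R26C DMSO and Cd68 at 6.42 in H3WT DMSO. The Mmp9-holding replicating cells of H3R26C DMSO carried Col1a1 at 2270 CPM and Col3a1 at 892 CPM, against 3811 and 2508 in those without a Mmp9 UMI, and Vim, the mesenchymal intermediate filament, at 7010 against 4969 CPM.

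Some matrix genes were among the largest falls in the replicating cells of H3R26C. With DMSO, 3 of 25 genes of the collagen and matrix list were at least 2-fold lower in H3R26C and none higher, beside 1.91% of all genes lower, with a median log2 ratio of -0.32 in replicating cells and -0.14 in quiet cells. Eln, elastin, was at 66.9 CPM (58.5 to 76.0) in H3R26C DMSO against 525 in H3WT DMSO, and in quiet cells at 142 against 444. Dpt, a small matrix protein, was at 13.5 against 52.6 CPM, and at 21.2 against 53.4 in quiet cells. With 5-Aza, Mfap5, a component of elastic fibres, was at 22.4 CPM (18.7 to 26.5) in H3R26C against 261 in H3WT, and Eln was at 52.8 against 350. In quiet cells Mfap5 was at 51.0 against 239 CPM and Eln at 78.3 against 636. Over the list with 5-Aza, 10 of 26 genes were at least 2-fold lower in H3R26C and 1 was higher, beside 5.35% and 3.86% of all genes, with a median log2 ratio of -0.83 in replicating cells and -0.26 in quiet cells.

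With 5-Aza, the 5 genes with the largest rise in H3R26C over H3WT included Nefl and Il1rl1. Nefl, a neurofilament protein, was at 66.9 CPM (60.5 to 73.9) in H3R26C 5-Aza, in 82 of 316 cells, and had 0 UMIs in the replicating cells of the other 3 libraries, where a floor of 3 counts a library corresponds to 0.714, 1.51 and 0.861 CPM and the exact Poisson limits are 0.877, 1.86 and 1.06 CPM. In quiet cells of H3R26C 5-Aza it was at 3.08 CPM, in 2.0% of cells against 25.9% of replicating cells, whose depth was higher. It was as high in the replicating cells with mitosis RNA of that library, at 71.5 CPM in 25.3% of cells, and at 35.8 CPM in its mitotic cells. Il1rl1, the receptor of interleukin 33, was at 66.4 against 1.51 CPM in replicating cells and 13.4 against 1.90 in quiet cells. In H3R26C 5-Aza it was at 46.7 CPM in replicating cells with mitosis RNA and at 26.8 CPM in mitotic cells. Neither gene was therefore particular to the replicating cells.

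Of 21 interferon-stimulated genes compared in H3R26C, 15 were at least 2-fold higher in replicating cells with 5-Aza than with DMSO and none lower, beside 4.91% of all genes higher, and the median log2 ratio was 2.17 (2.34 in quiet cells). In H3WT the same list had a median of 0.42 over 14 genes, against 0.88 in quiet cells, with 1 higher and 1 lower, beside 4.8% and 1.74% of all genes. Between genotypes with 5-Aza, 13 of 21 were higher in H3R26C and none lower, beside 3.86% of all genes higher, with a median of 1.72. Of 15 immediate early genes compared in H3R26C, 6 were at least 2-fold lower with 5-Aza and none higher, beside 5.14% of all genes lower, and of 17 compared in H3WT 6 were lower and 1 higher, beside 1.74% of all genes lower. Fos, a subunit of AP-1, was at 24.9 CPM (21 to 29.3) in the replicating cells of H3R26C 5-Aza against 251 in H3R26C DMSO and 248 in H3WT 5-Aza. In H3WT, Fosb was at 73.7 CPM with DMSO and 17.1 with 5-Aza, and Nr4a1 at 177 and 51.9 CPM. Quiet cells held Fosb at 129 and 29.3 CPM in the same order.

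Skeletal muscle genes led the rises with 5-Aza in both genotypes. The 13 muscle markers summed to 4.28 CPM in the replicating cells of H3WT DMSO, 1904 in H3WT 5-Aza, 5.16 in H3R26C DMSO and 1839 in H3R26C 5-Aza, and to 2.57, 2366, 2.33 and 2953 CPM in quiet cells. Ttn, titin, was at 1079 CPM in the replicating cells of H3WT 5-Aza, but 66% of its UMIs came from a lone cell. For the markers Acta1 and Mylpf a lone cell gave 39.3% and 41.5% of the UMIs there. In H3R26C 5-Aza it gave 32.3% for Acta1, 31.1% for Mylpf and 15.4% for Ttn. The muscle sums thus rest in good part on few cells. Myog, the transcription factor of muscle differentiation, had 693 UMIs in 53 of 316 cells of H3R26C 5-Aza and 0 in H3R26C DMSO. At 10 or more selecting UMIs the muscle sums fell to 265 and 640 CPM. Whether the muscle RNA in these cells came from doublets, from free RNA or from the cells themselves was not tested.

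Markers of the remaining cell types are given for the same cells. The 13 adipocyte markers summed to 207, 204, 114 and 124 CPM in replicating cells and to 220, 386, 293 and 285 CPM in quiet cells, with Plin1, Cidec, Lep and Retn at 0 in the replicating cells of most libraries. The most abundant was Plin4 with DMSO, at 125 CPM against 121 in quiet cells in H3WT and 49.1 against 92.2 in H3R26C. With 5-Aza it was Fabp4, at 58.9 against 129 CPM in H3WT and 70.9 against 108 in H3R26C. Among chondrocyte markers, Col2a1, cartilage collagen, was at 37.8, 23.2, 86.7 and 19 CPM against 14.8, 10.5, 23.6 and 13.3 CPM, higher in the replicating cells of each library, while Matn1 was at 0 in all. Osteoblast markers summed to 7.37, 7.56, 13.5 and 21.9 CPM, almost all of it Dmp1, with Bglap and Sp7 at 0. Endothelial markers summed to 6.32 to 9.07 CPM.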

How the data were processed

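Expression was measured by 10x 3' single-cell RNA-seq in 4 libraries, 1 per condition. The deposited matrices hold UMI counts per gene and barcode, which the authors made with Cell Ranger 6.1.0 (file header) on the mm10 reference (GRCm38); Seurat 4 is named in the submitters' processing notes. The counts were used as deposited. Cells with at least 5000 UMIs, at least 1500 genes and at most 20% mitochondrial UMIs were kept, and no doublet caller was run. The deposited cells were already called by Cell Ranger, and no annotation of cells was used here.

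Cells were selected as stated above. UMIs were summed per library and class, scaled to CPM and compared as log2 ratios with 1 CPM added, among genes with at least 10 CPM (mean over the 4 libraries in either class; between conditions, in either library). A change means a log2 ratio of 1 or more in size. There is no test, since each condition is 1 library. Intervals are exact Poisson for CPM and Clopper-Pearson for shares, at 95%. Named genes were the 10 with the largest smallest-of-4 ratio and the 10 with the most negative largest-of-4 ratio among genes with at least 20 CPM, without the 11 selecting genes and mitochondrial genes, and, between conditions, the 5 largest rises and falls among genes with at least 50 CPM. Further genes were singled out after their values were seen: Adipoq as the fifth gene lower in all 4 libraries, Hmga2, Plaur, Itga6 and Psat1; the count of cells holding Mmp9 and Ccl2 and their Col1a1, Col3a1 and Vim was also chosen then. The members of each list, the lists and the selection rule were chosen with earlier results of these data known. Positions are from GENCODE vM21 (99.8% of 32285 genes matched by ID), promoters from the RefSeq table of GRCm38.p6. The fold calls were tested on simulated data, and no outcome of that check is used here. Python 3.11.15, numpy 2.4.6, scipy 1.17.1, pandas 2.3.3 and matplotlib 3.10.9 were used. Alternatives tried were thinned depth, a window of depth, other cell filters, thresholds, pseudocounts, minimum levels, scalings, reference cells and leaving out each library. Some genes that these rules name are not reported here.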

Additional observations from a re-analysis of the deposited data

Results flagged for a closer look

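Barcodes left out by the cell filter also held a few cells that passed the rule on replication and mitosis UMIs. In H3WT 5-Aza there were 6 such barcodes and in H3R26C 5-Aza there were 7, beside 3 and 1 in the DMSO libraries of the same genotypes. The filter left out 9009 and 4491 barcodes with 5-Aza and 2529 and 1813 with DMSO, so that as a share of barcodes left out the order turns in H3WT. Each held under 5000 UMIs, and none enters a value above. They were noted because they lie in barcodes that no comparison used, and their number was not tested.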

How the results depend on the processing

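No paired analysis was possible because the 4 conditions had 1 library apiece. The shares, 3.67%, 1.85%, 3.15% and 4.15% in H3WT DMSO, H3WT 5-Aza, H3R26C DMSO and H3R26C 5-Aza, moved with depth and threshold. In that order they were 2.51%, 2.35%, 3.93% and 5.24% after thinning, 13.6%, 4.92%, 8.12% and 7.55% with at least 4 replication UMIs, 0.863%, 0.968%, 1.80% and 2.36% with at least 10, and 7.39%, 5.89%, 10.4% and 13.3% with no limit on mitosis UMIs. Leaving Pcna out of the rule, chosen after seeing the data, gave 0.863%, 1.25%, 1.99% and 2.94%. Cells of 10000 to 25000 UMIs gave 1.62% in H3WT DMSO, 2.34% in H3R26C DMSO and 5.02% in H3R26C 5-Aza, and a stricter cell filter gave 5.18% in the last. The 100 genes higher in all libraries became 52 in the depth window, 387 after thinning, 251 with at least 10 replication UMIs, 241 without Pcna, 49 with 5 CPM added, 33 with a minimum of 50 CPM and 19 against all other kept cells. The 5 lower genes became 3, 19, 40, 32, 2, 0 and 19 in the same order, 9 with 0.1 CPM added and 10 with no minimum. Leaving out 1 library gave 100 to 211 higher and 6 to 30 lower genes. Between conditions, 583 genes for 5-Aza in H3WT became 1207 in the depth window, 380 with 5 CPM added and 153 with a minimum of 50 CPM. The 519 for H3R26C against H3WT with DMSO became 1063, 331 and 165. The 828 for the same contrast with 5-Aza became 551 with 5 CPM added and 264 with the minimum, and the 903 for 5-Aza in H3R26C became 314 with the minimum. The cause was not tested except that a higher minimum compares fewer genes. The lowest of the 4 log2 ratios turned to -0.022 for Pclaf and -0.48 for Tk1 against all other kept cells, which include those with mitosis RNA, and Scg2 (H3R26C against H3WT with 5-Aza) turned to 1.31 without Pcna. Of 340 values of named genes against quiet cells 326 kept their direction and side of the fold, as did 311 of 320 between conditions. Small classes limit the rest, with 111 replicating cells in H3WT 5-Aza and 32 with at least 10 replication UMIs in H3WT DMSO.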

Other observations

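Several further genes, all but Fosl1 outside the lists, were also at least 2-fold higher in the replicating cells of all 4 libraries. Hmga2, an architectural chromatin protein of embryonic and proliferating mesenchyme, was at 8.56 CPM in H3WT DMSO, 30.2 in H3WT 5-Aza, 70.0 in H3R26C DMSO and 178 in H3R26C 5-Aza, against 1.22, 3.39, 4.35 and 27.4 CPM in quiet cells. Hmga2 was therefore highest in the H3R26C libraries in both classes. Fosl1, an AP-1 subunit, was at 7.61, 23.7, 66.0 and 106 CPM against 2.42, 4.34, 5.30 and 26.3, and was the only immediate early gene past the fold in all 4. Plaur, the urokinase receptor, was at 8.09, 27.7, 27.3 and 65.9 CPM against 3.30, 7.46, 2.99 and 16.6. Itga6, a laminin-binding integrin, was at 10.5, 31.7, 31.9 and 60.8 CPM against 4.37, 7.2, 4.75 and 19.97. Psat1, an enzyme of serine synthesis, was at 42.8, 100, 83.5 and 202 CPM against 19.4, 30.7, 16.2 and 48.8. Each was lowest in H3WT DMSO among the replicating cells. These values come from the contrast that selected the cells and have no replicate.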
